A study of Mus musculus with 39 samples.

Results

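The 6 genes examined here, Lif, Lifr, Il6st, Jak1, Stat3 and Socs3, form the core of the leukemia inhibitory factor (LIF) and JAK-STAT pathway. They were chosen by name for their role and not by a cut on their values, although with earlier results of these data known. They make up 6 of the 21938 protein-coding genes of the GRCm38 annotation. For each gene, all peaks of 36 peak lists were collected over the gene body and 20 kb on either side, which is called its window.

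LIF is a secreted cytokine of the interleukin-6 family. It binds LIFR, which pairs with the shared receptor chain gp130 (encoded by Il6st), and the receptor-bound kinase JAK1 then phosphorylates STAT3, which enters the nucleus and activates target genes. One of these targets, Socs3, encodes an inhibitor that binds gp130 and JAK and shuts the signal off. LIF sustains naive pluripotency of mouse embryonic stem cells, and it also supports primitive endoderm, the extra-embryonic lineage that arises beside the epiblast in the blastocyst.

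The libraries are CUT&Tag profiles (a transposase is tethered by an antibody to a histone mark and cuts the DNA there) of mouse naive extra-embryonic endoderm (nEnd) cultures. Cells of 1 reporter line, OCT4-mCherry, were sorted by FACS for mCherry and for PDGFRA stained with APC, into cells with OCT4 alone (Oct4+), with both (DP) and with PDGFRA alone (Pdgfra+). Each population has 3 libraries for each of H3K4me1 (enhancers, active or primed), H3K27ac (active enhancers and promoters), H3K27me3 (Polycomb repression) and H3K9me3 (heterochromatin). By the study's methods, nEnd cells were grown on feeder fibroblasts in RPMI medium with Activin A, CHIR99021 and LIF, so that LIF was supplied to every population, and no group was treated otherwise. The study describes its replicates as biological, without saying how their cultures were kept apart, and p-values measure the spread between these libraries. A mark in fewer cells of a sorted population cannot be told apart from a weaker mark in all of its cells.

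The lists held 1074 to 65131 peaks. For H3K27ac, Oct4+ lists held 8574 to 65131 peaks, DP lists 3079 to 12244 and Pdgfra+ lists 4792 to 7128. Sequencing depth is unknown, and a region with no listed peak can still carry the mark. The lowest total signal that was listed (coverage summed over the bases of a peak) was 5460 to 6021 in H3K27ac lists of Oct4+ cells, while DP lists began at 13683 to 14586 and Pdgfra+ lists at 8736 to 28044, so that H3K27ac peaks with a total below 8736 were listed in Oct4+ libraries only. The populations were checked at marker genes. Of 8 epiblast genes, 8 had an H3K27ac peak in their window in at least 2 of 3 Oct4+ libraries and 0 in at least 2 DP or Pdgfra+ libraries, although 3 had one in 1 DP library each and 1 had one in 1 Pdgfra+ library. By the same rule, 10 of 10 endoderm genes had one in DP and in Pdgfra+ and 8 of 10 in Oct4+ libraries. Of all protein-coding genes, 69.0% had one by this rule in Oct4+, 49.1% in DP and 34.0% in Pdgfra+ libraries.

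STAT3 dimers bind the palindrome TTCCNGGAA, which reads the same on both strands, and any such match is also a match to the looser TTCNNNGAA. The windows of the 6 genes, 579 kb in all, held 25 matches to TTCCNGGAA, or 0.432 per 10 kb, beside 0.271 per 10 kb over the windows of all protein-coding genes. A peak of H3K27ac covered 9 of the 25 in at least 1 library. The same share was not counted over the windows of all genes, so this count has no background. The sequences below, read from GRCm38 in the direction of the gene, show 6 matches under peaks of H3K27ac or H3K4me1, at least 1 for each gene except Jak1, with the match in capitals and its distance from the annotated gene start in kb.
Lifr +24.91 kb, chr15:7115491-7115551, + strand: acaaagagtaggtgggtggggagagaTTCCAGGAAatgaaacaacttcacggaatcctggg
Lif +22.39 kb, chr11:4279915-4279975, + strand: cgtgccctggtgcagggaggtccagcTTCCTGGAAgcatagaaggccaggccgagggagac
Il6st -3.49 kb, chr13:112460550-112460610, + strand: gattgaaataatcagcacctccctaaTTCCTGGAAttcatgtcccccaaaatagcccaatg
Stat3 +4.64 kb, chr11:100934867-100934927, - strand: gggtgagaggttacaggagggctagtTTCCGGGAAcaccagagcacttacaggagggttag
Socs3 +0.8 kb, chr11:117969213-117969273, - strand: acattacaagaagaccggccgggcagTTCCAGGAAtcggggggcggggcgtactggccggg
Socs3 +7.42 kb, chr11:117962597-117962657, - strand: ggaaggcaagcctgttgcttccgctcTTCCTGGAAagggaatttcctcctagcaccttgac

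The match at Lifr +24.91 kb lies in an intron and was the only one of the 25 under an H3K27ac peak in all 3 libraries of any population. It was covered in 3 of 3 Oct4+ libraries and in 0 of 3 DP and 0 of 3 Pdgfra+ libraries. At Lif +22.39 kb, downstream of the gene in an intron of the noncoding gene Gm11959, H3K27ac covered the match in 0 of 3 Oct4+, 2 of 3 DP and 1 of 3 Pdgfra+ libraries. The Il6st match was under H3K4me1 in 1 of 3 Oct4+ libraries and under H3K27ac in none, and of 5 Jak1 matches, not shown, 2 were under H3K27ac in 1 Oct4+ library each. The Stat3 match, in an intron, was under H3K4me1 in 2 of 3 and under H3K27ac in 1 of 3 Oct4+ libraries, and under neither in the other populations. The Socs3 match at +0.8 kb, between annotated starts of the gene at +0.596 and +0.861 kb, was under H3K27ac in 2 of 3 libraries of every population.

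Promoter sequences of 300 bases were found in RefSeq (GRCm38.p6) for all 6 genes, with 2 entries for Lifr. TTCCNGGAA was in none of them, and TTCNNNGAA was in that of Socs3 alone. Among 32851 promoters of the same length, 1.15% held the first and 8.30% the second. The Socs3 TTCCAGGAA match at +0.8 kb lies outside its RefSeq entry, just upstream of the annotated start at +0.861 kb. The stretch upstream of the RefSeq start of Socs3, at +0.68 kb from the GENCODE start, is shown with the TTCNNNGAA match in capitals, from a promoter under H3K27ac in 2 of 3 libraries of each population.
Socs3 promoter, upstream part, within chr11:117969317-117969616, - strand: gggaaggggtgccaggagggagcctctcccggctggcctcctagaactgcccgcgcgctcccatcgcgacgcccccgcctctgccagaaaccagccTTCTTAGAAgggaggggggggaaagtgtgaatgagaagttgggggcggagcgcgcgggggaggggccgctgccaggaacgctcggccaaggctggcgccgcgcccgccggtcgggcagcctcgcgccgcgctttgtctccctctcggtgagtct

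Lif encodes the ligand (chr11:4257557-4272514, + strand, 15.0 kb). H3K27ac covered 8.34, 34.4 and 0% of its window in Oct4+ libraries 1 to 3, 27.9, 23.7 and 36.9% in DP and 31.6, 25.7 and 23.2% in Pdgfra+. Values are in the order of replicate number throughout. All 6 DP and Pdgfra+ libraries lay above 2 of the 3 Oct4+ libraries, and Oct4+ replicate 2, the longest H3K27ac list, reached their range, so the populations overlapped (14.3 ± 18, 29.5 ± 6.73 and 26.8 ± 4.35%, mean ± SD, n = 3; one-way F with exact permutation of the libraries, p = 0.250, adjusted p = 0.542).

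The peaks lay partly at different places in the Lif window. Around the first annotated start (1 kb upstream to 100 bp downstream), H3K27ac was listed in 2 of 3 Oct4+ libraries and in 0 of 3 of DP or Pdgfra+. Those Oct4+ peaks had totals of 6959 and 14991, the first below the lowest total of every DP and Pdgfra+ list and the second below those of Pdgfra+ replicates 1 and 3. The later starts lie at +9.24 and +9.54 kb. With them included, a promoter peak was listed in 2 of 3 Oct4+, 3 of 3 DP and 3 of 3 Pdgfra+ libraries. The Oct4+ peaks there ran from +8.31 to +10.34 kb in replicate 1 and from +6.05 to +11.38 kb in replicate 2 (total 19355). DP and Pdgfra+ peaks overlapped the same ground. The peak of Oct4+ replicate 2 ended at the edge of the stretch that follows. From +11.38 to +14.77 kb, over the coding end and 3' UTR, and from +15.79 to +17.01 kb (chr11:4273347-4274565), downstream of the gene, an H3K27ac peak overlapped in all 6 DP and Pdgfra+ libraries and in 0 of 3 Oct4+ libraries. A stretch of at least 200 bp with H3K27ac in 3 of 3 DP and 0 of 3 Oct4+ libraries was found in 8.67% of the 18706 windows with an H3K27ac peak, and one with 3 of 3 Pdgfra+ and 0 of 3 Oct4+ in 9.18%, and Lif was the 1 pathway gene of 6 with either.

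**Figure D1:**
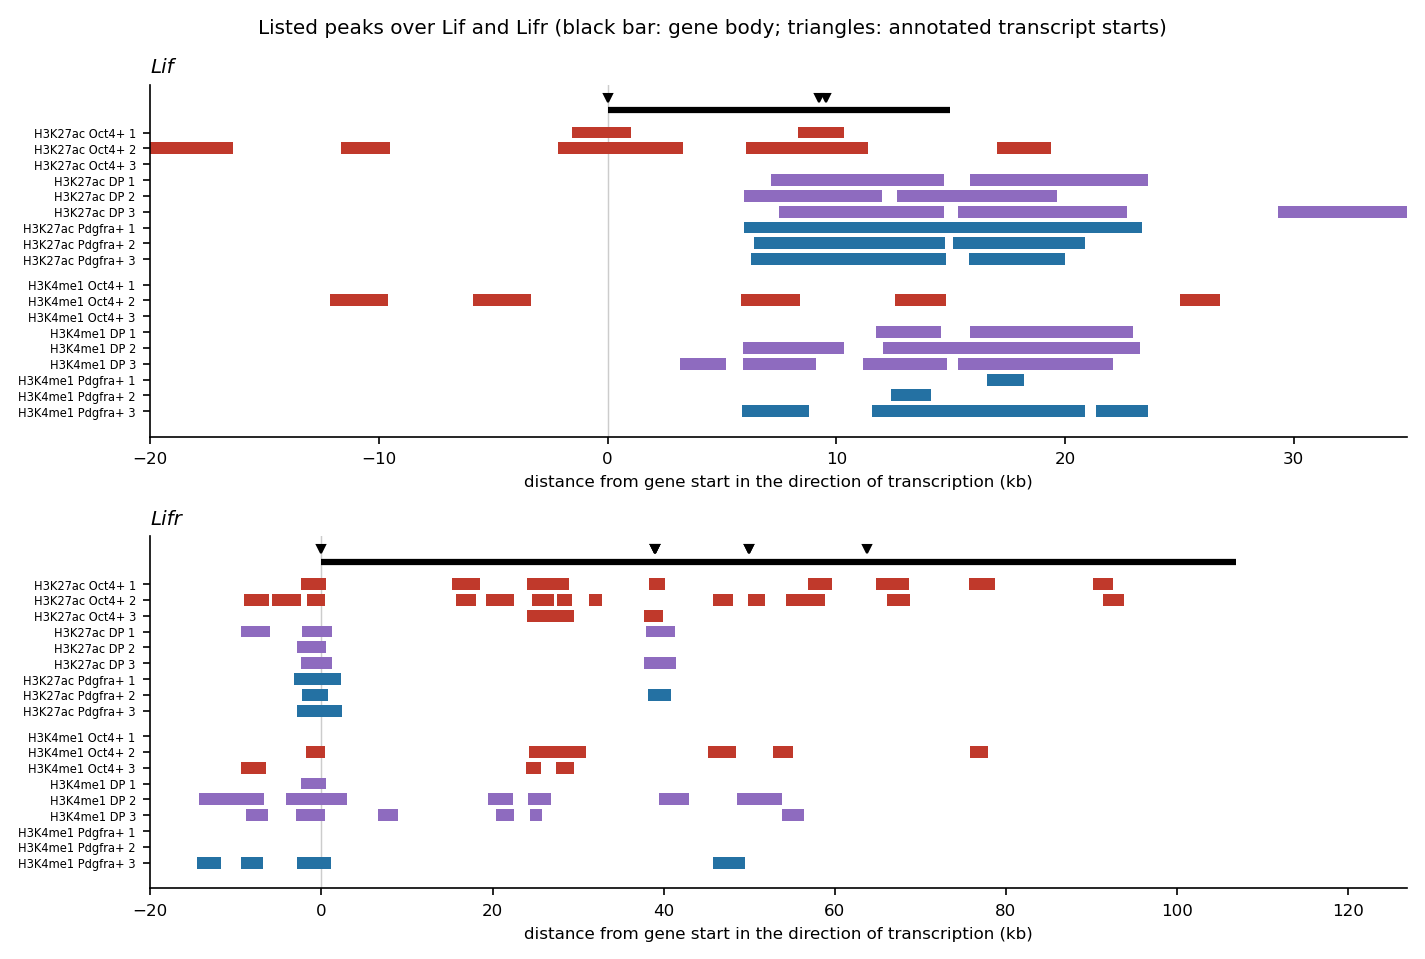
Listed H3K27ac and H3K4me1 peaks of each library (rows, coloured by population) over the windows of Lif and Lifr, by distance from the gene start in kb, with the gene body as a bar and transcript starts as triangles. DP and Pdgfra+ H3K27ac peaks run from about +6 kb of Lif past its end, where Oct4+ replicates 1 and 2 have shorter peaks. All 3 Oct4+ libraries share a block near +24.56 kb of Lifr that no DP or Pdgfra+ library shows.

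At the downstream Lif stretch, the H3K27ac peak had a total signal of 61985, 36986 and 85268 in DP and 146045, 34491 and 58031 in Pdgfra+ libraries. These peaks ranked high within their lists, above 83.3 to 99.2% of the other peaks of the same library. The signal is not scaled between libraries, and whether depth had a part in the missing Oct4+ peaks was not tested. Oct4+ replicate 2 had a weak peak that began where the stretch ended, from +17.01 to +19.4 kb, with a total signal of 6422. DP and Pdgfra+ peaks covered that ground too. When only the same number of top peaks was kept in every library (3079), a check added after the data were seen, 3 of 3 DP and 3 of 3 Pdgfra+ libraries kept the peak. The Oct4+ count of 0 could not rise, since this setting only removes peaks. Under the same setting the covered share of the Lif window in DP exceeded that in Oct4+ by 26.1 percentage points, beside 15.2 with all peaks (exact permutation p = 0.0321 for the 3 populations, not past the adjusted threshold). It kept 3079 of the 65131 peaks of Oct4+ replicate 2 and every peak of DP replicate 2. The wider gap therefore does not show that the difference is independent of list length.

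**Figure D2:**
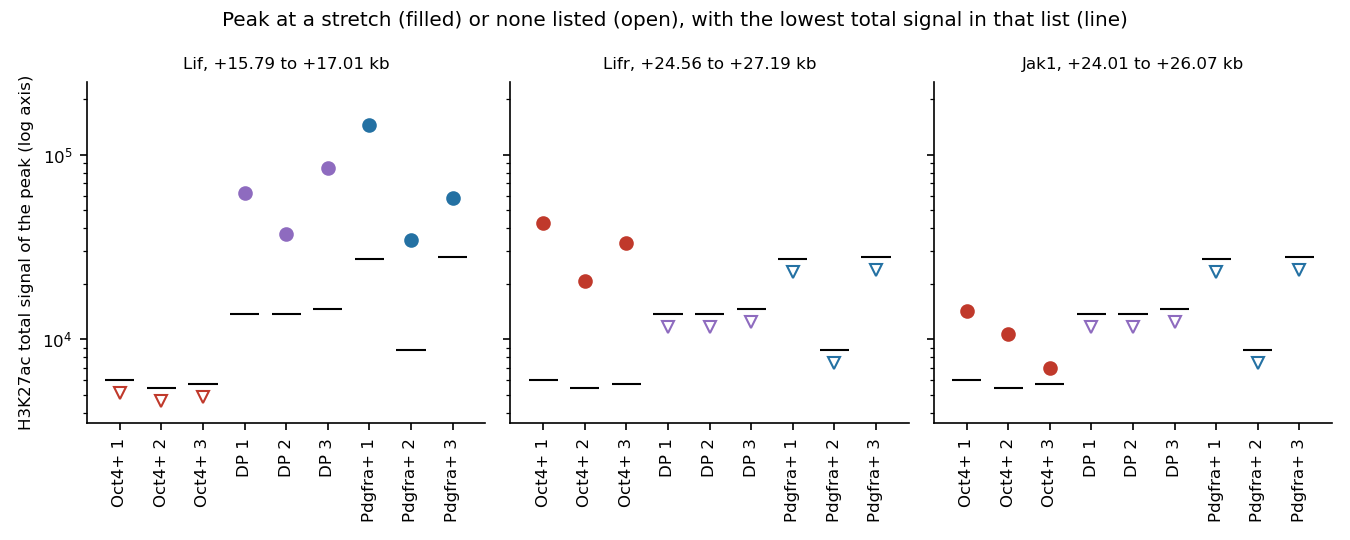
Total H3K27ac signal (log axis) of the peak at 3 stretches, in the windows of Lif, Lifr and Jak1, for each of 9 libraries (filled points), with the lowest total signal of each list as a line and an open triangle where no peak was listed. The Lif and Lifr peaks stand above the lines of most libraries that lack them, while the Jak1 peaks, at 6970 to 14177, stand below or near those of the DP and Pdgfra+ lists.

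H3K4me1, which marks enhancers before and during their use, was listed over the same ground of Lif. It covered 0, 21.0 and 0% of the window in Oct4+, 18.1, 28.4 and 28.5% in DP and 2.88, 3.23 and 26.5% in Pdgfra+ libraries. The DP libraries were all at or above 18.1%, a level that 1 Oct4+ and 1 Pdgfra+ library also passed (exact permutation p = 0.232, adjusted p = 0.747). Between +15.86 and +22.09 kb, 3 of 3 DP, 2 of 3 Pdgfra+ and 0 of 3 Oct4+ libraries had an H3K4me1 peak. It ranked above 98.5 to 99.7% of its list in each DP library, and above 9.58 and 99.5% in Pdgfra+ replicates 1 and 3. Such an H3K4me1 stretch for DP over Oct4+ was present in 15.3% of 13301 windows, and among the 6 genes in Lif and Lifr.

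Markers of fibroblasts, the feeder cells of the cultures, were read in the same libraries. Of 10 fibroblast genes (among them Col1a1, Col1a2, Col3a1, Thy1 and Postn), 0 had an H3K27ac peak in any Pdgfra+ library, and all 10 were thus at 0 there. In DP libraries 2 of 10, Thy1 and Lum, had one in at least 1 library, and the summed covered share of the list was 0 to 7.03%. In Oct4+ libraries 8 of 10 had one in at least 1 library and the sum was 2.65 to 44.9%. Of all protein-coding genes, 37.7 to 81.4% had an H3K27ac peak in their window in a single Oct4+ library. This share was 21.8 to 54.1% in DP and 30.2 to 39.8% in Pdgfra+ libraries. The DP and Pdgfra+ lists were also mostly shorter and began at higher signals, and the part of feeder cells in the Lif peaks was not tested.

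H3K27me3 near Lif was listed at the edges of its window. In Oct4+ replicates 2 and 3 and Pdgfra+ replicate 3 it lay upstream, towards Osm, the gene of the related cytokine oncostatin M, in DP replicates 2 and 3 it lay at the downstream edge, and no library listed it at the Lif start. No H3K9me3 peak was listed in the Lif window in any of 9 libraries.

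Lifr, the gene of the LIF-binding receptor chain (chr15:7090614-7197489, + strand, 107 kb), has annotated starts at 0, about +38.95, +49.93 and +63.74 kb. H3K27ac covered 17.1, 23.1 and 5.21% of its window in Oct4+, 6.99, 2.29 and 5.02% in DP and 3.78, 3.81 and 3.56% in Pdgfra+ libraries. All 3 Oct4+ libraries lay above all 3 Pdgfra+ libraries, and Oct4+ replicate 3 lay within the DP range. The means were 15.2 ± 9.13, 4.77 ± 2.36 and 3.72 ± 0.134% (SD, n = 3), with an exact permutation p of 0.0679 and an adjusted p of 0.542. With equal numbers of peaks the Oct4+ mean no longer exceeded that of Pdgfra+ (difference -0.77 percentage points). The wider Oct4+ coverage thus rested on peaks outside the top 3079 of each list, a cut that keeps a smaller part of the longer Oct4+ lists.

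The start of Lifr and its intron behaved differently. At the GENCODE start an H3K27ac peak was listed in 2 of 3 Oct4+, 3 of 3 DP and 3 of 3 Pdgfra+ libraries. In the RefSeq promoter near +38.96 kb it was listed in 2 of 3 Oct4+, 2 of 3 DP and 1 of 3 Pdgfra+ libraries. In between, 2 neighbouring intronic stretches, from +24.56 to +27.19 kb (chr15:7115174-7117807) and from +27.52 to +28.91 kb (chr15:7118132-7119526), were under H3K27ac in all 3 Oct4+ libraries and in 0 of 6 others.

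The H3K27ac peak at the first intronic stretch, which holds the TTCCAGGAA match printed above, had a total signal of 42929, 20740 and 33081 in Oct4+ libraries 1 to 3. It ranked above 99.1, 94.7 and 99.3% of the peaks of its list, and it was the strongest H3K27ac peak of the Lifr window in each. All 3 values exceeded the lowest signals listed in DP (14586 at most) and in Pdgfra+ replicate 2 (8736), whereas the peak of Oct4+ replicate 2 was below those of Pdgfra+ replicates 1 and 3 (27115 and 28044). With equal numbers of peaks, a setting that can only remove peaks, 2 of 3 Oct4+ libraries kept it. Of the stretches under H3K27ac in 3 of 3 Oct4+ libraries genome-wide, 6.96% held TTCCNGGAA, and of the 21 such H3K27ac or H3K4me1 stretches in the 6 windows over the 3 populations, this was the only 1.

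H3K4me1 at Lifr was widest in DP. It covered 0, 11.4 and 4.62% of the window in Oct4+, 1.96, 19.9 and 9.82% in DP and 0, 0 and 8.78% in Pdgfra+ libraries, with overlap between all populations (exact permutation p = 0.411, adjusted p = 0.884). The intronic block carried H3K4me1 in 2 of 3 Oct4+, 2 of 3 DP and 0 of 3 Pdgfra+ libraries. By the rule that an H3K4me1 region outside promoters with H3K27ac is active and one with neither H3K27ac nor H3K27me3 is primed, with a peak in at least 2 of 3 libraries for each mark, it was active in Oct4+ (+23.96 to +30.95 kb), primed in DP (+24.09 to +26.83 kb) and not listed in Pdgfra+. The DP call rested on weak H3K4me1 peaks, above only 12.95 and 19.7% of the peaks of their lists in replicates 2 and 3. The Oct4+ H3K4me1 peaks over the first stretch ranked above 93.9 and 42.8% in replicates 2 and 3. Pdgfra+ replicates 1 and 2 had the shortest H3K4me1 lists (1723 and 1074 peaks), and replicate 3, with 10620, listed none there either. The step from primed to not listed thus rested on peaks low in their lists. Upstream of the start, from -2.35 to -1.8 kb, H3K4me1 was listed in 3 of 3 DP, 1 of 3 Pdgfra+ and 0 of 3 Oct4+ libraries. Oct4+ replicate 2 had an H3K4me1 peak that began where this stretch ended, from -1.8 to +0.41 kb, over the start. No library listed H3K27me3 or H3K9me3 anywhere in the Lifr window.

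**Figure D3:**
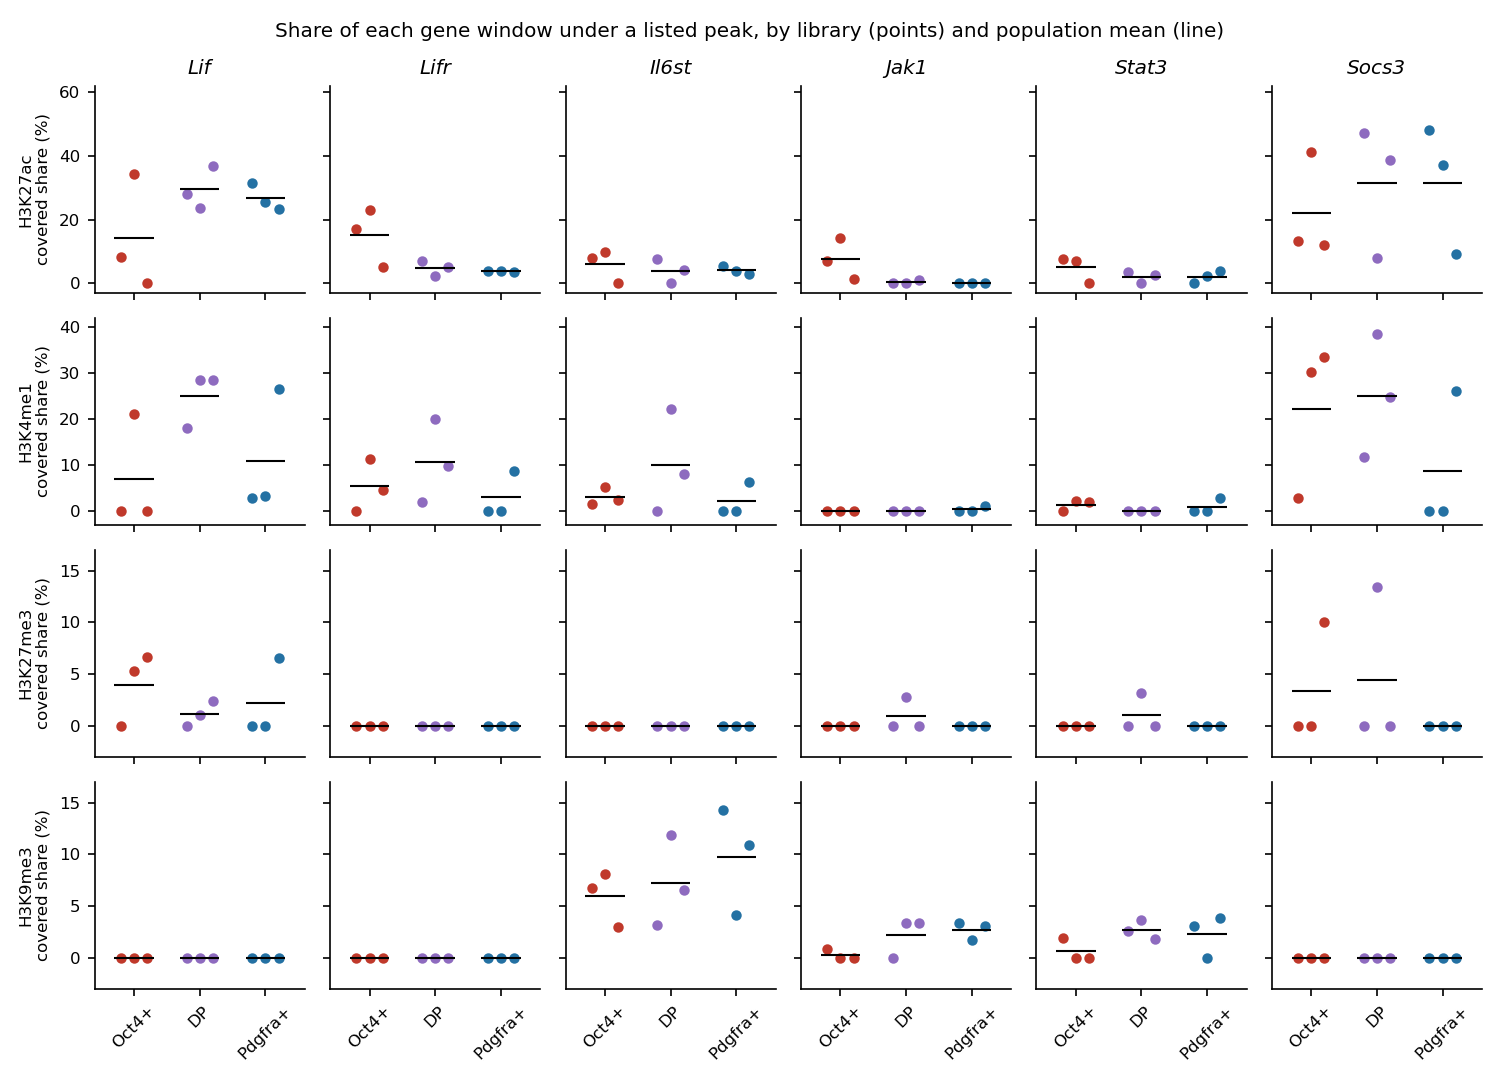
Percent of each gene's window under a listed peak, for 4 marks (rows, each with its own scale) and 6 genes (columns), with 1 point per library and a line at the mean of the 3 libraries of a population. The Oct4+ points of Jak1 H3K27ac lie above all others, while in Lif and Socs3 the spread within a population is as large as the gaps between populations.

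Il6st encodes gp130, the signalling chain that LIFR shares with other interleukin-6 family receptors (chr13:112464070-112510086, + strand). H3K27ac covered 7.91, 9.70 and 0% of its window in Oct4+, 7.60, 0 and 4.24% in DP and 5.48, 3.84 and 2.86% in Pdgfra+ libraries. The populations overlapped throughout (exact permutation p = 0.779, adjusted p = 1.0), and the promoter was under H3K27ac in 2, 2 and 3 of 3 libraries. The 2 libraries with no H3K27ac peak in the window, Oct4+ replicate 3 and DP replicate 2, had the shortest H3K27ac lists of their populations.

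H3K4me1 covered 1.59, 5.13 and 2.40% of the Il6st window in Oct4+, 0, 22.2 and 8.0% in DP and 0, 0 and 6.31% in Pdgfra+ libraries, with overlap (exact permutation p = 0.346). Just upstream of the gene, from -2.68 to -1.31 kb (chr13:112461386-112462756) it was listed in 3 of 3 Oct4+, 1 of 3 DP and 0 of 3 Pdgfra+ libraries, with total signals of 6204, 12142 and 10863 in Oct4+ and, the strongest, 55739 in DP replicate 2. An H3K4me1 stretch in 3 of 3 Oct4+ and 0 of 3 Pdgfra+ libraries was found in 17.3% of windows, among them those of Il6st and Socs3. With equal numbers of peaks (1074 a library) it was left in 0 of 3 Oct4+ libraries, so it rested on peaks below the top of each list.

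Il6st was the pathway gene with the most H3K9me3, a mark of constitutive heterochromatin. It covered 6.70, 8.07 and 3.0% of the window in Oct4+, 3.17, 11.9 and 6.56% in DP and 14.2, 4.08 and 10.9% in Pdgfra+ libraries (exact permutation p = 0.521). Most of its peaks lay outside the gene, and 3 of 3 Oct4+ and 3 of 3 Pdgfra+ libraries shared a stretch from +53.12 to +55.55 kb. Inside the gene, an intronic stretch from +21.46 to +23.2 kb was listed in 3 of 3 DP, 2 of 3 Pdgfra+ and 0 of 3 Oct4+ libraries, a pattern of DP over Oct4+ found in 12.3% of the 13215 windows with H3K9me3. The peaks there had total signals of 7796, 7485 and 6828 in DP, and with equal numbers of peaks (5322) none was left.

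**Figure D4:**
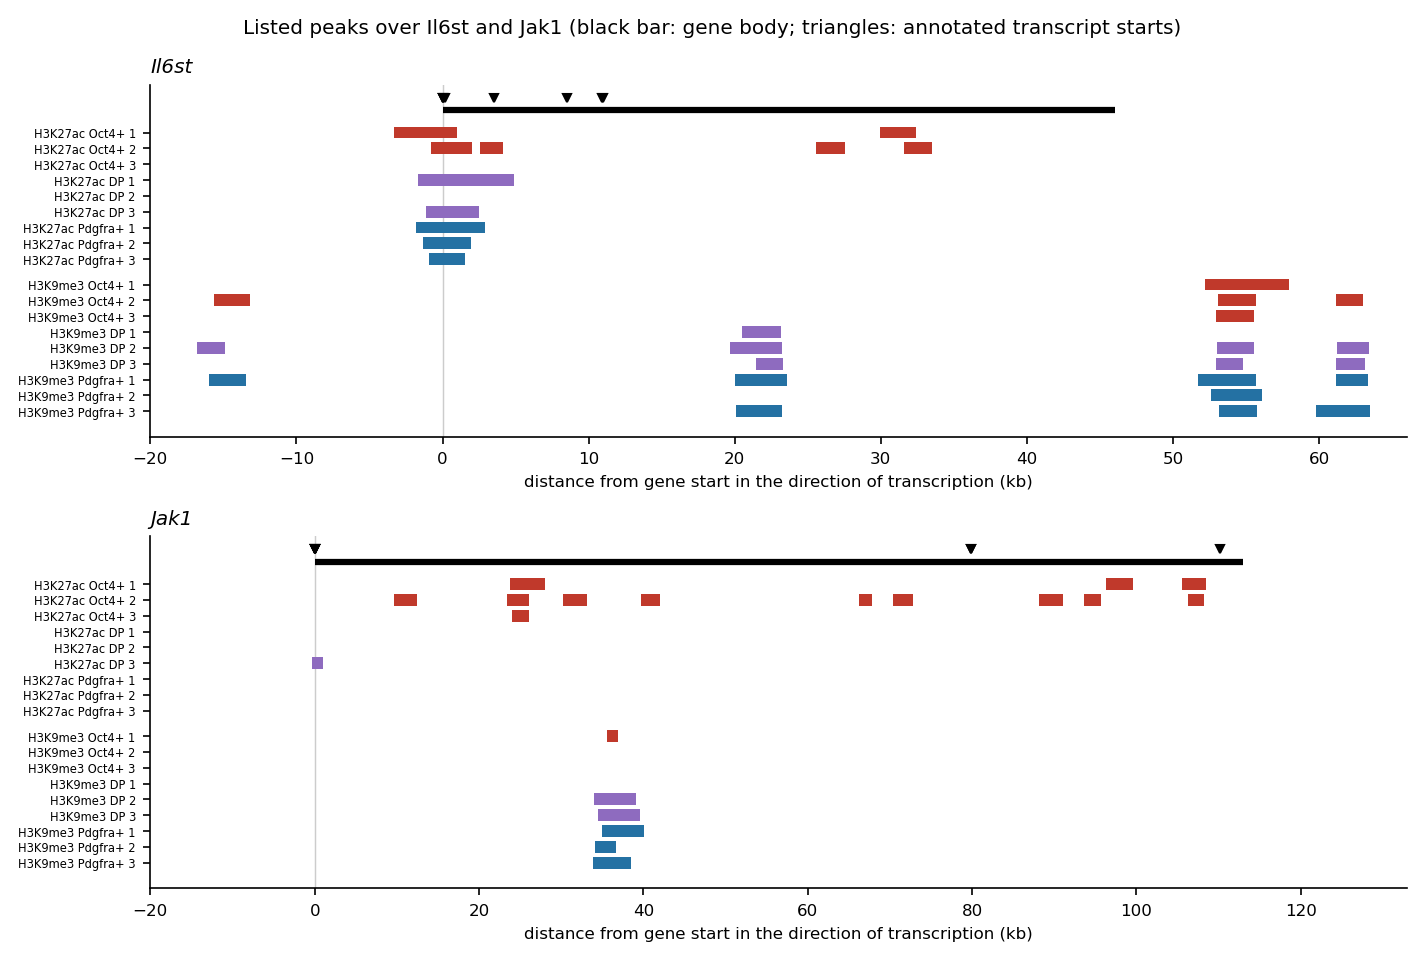
Listed H3K27ac and H3K9me3 peaks of each library (rows, coloured by population) over the windows of Il6st and Jak1, by distance from the gene start in kb, with the gene body as a bar and transcript starts as triangles. H3K9me3 recurs downstream of Il6st in all populations, and inside Jak1 from about +34 kb mainly in DP and Pdgfra+ libraries.

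Jak1 encodes the kinase that gp130 and LIFR bring to the membrane (chr4:101152367-101265282, - strand, 113 kb). H3K27ac covered 6.85, 14.3 and 1.35% of its window in Oct4+ libraries, 0, 0 and 0.885% in DP and 0, 0 and 0% in Pdgfra+. Every Oct4+ library was above every DP and every Pdgfra+ library. This order of Oct4+ over DP was seen in 8.23% of all windows tested and among the 6 genes in Jak1 alone, and that of Oct4+ over Pdgfra+ in 15.8% of windows and in Lifr and Jak1.

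The omnibus test of Jak1 H3K27ac gave an exact permutation p of 0.0357 and an adjusted p of 0.443 (7.52 ± 6.52, 0.295 ± 0.511 and 0 ± 0%, SD, n = 3). Its promoter was listed in 1 library only, DP replicate 3. The Oct4+ peaks lay inside the gene body, and 1 intronic stretch, from +24.01 to +26.07 kb (chr4:101239211-101241273), was under H3K27ac in 3 of 3 Oct4+ and 0 of 6 other libraries. Stretches of this kind were present in 13.8% of windows for Oct4+ over DP and 19.0% for Oct4+ over Pdgfra+, and at Lifr and Jak1 among the 6 genes. Both have long windows (147 and 153 kb, median of all genes 57.4 kb).

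The Jak1 peaks were weak. Their total signals were 14177, 10712 and 6970, and the lowest signals of the DP and Pdgfra+ lists were 8736 to 28044, so the weakest was below all of these and the strongest above those of 3 libraries. With equal numbers of peaks, 0 of 3 Oct4+ libraries kept it, and no H3K27ac difference between Oct4+ and Pdgfra+ was left over the Jak1 window (0 percentage points).

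H3K9me3 at Jak1 ran the other way. It covered 0.874, 0 and 0% of the window in Oct4+, 0, 3.34 and 3.30% in DP and 3.33, 1.74 and 3.04% in Pdgfra+ libraries. All Pdgfra+ libraries were above all Oct4+ libraries, as in 6.86% of windows, and among the 6 genes in Jak1 alone (omnibus exact permutation p = 0.218). The intronic stretch from +34.99 to +35.56 kb was listed in 0 of 3 Oct4+, 2 of 3 DP and 3 of 3 Pdgfra+ libraries, a pattern of Pdgfra+ over Oct4+ present in 10.4% of windows. Oct4+ replicate 1 had a peak that began where it ended, from +35.56 to +36.9 kb. With equal numbers of peaks, a setting that can only remove peaks, the stretch was listed in 0, 2 and 2 of 3 libraries.

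Stat3 encodes the transcription factor that carries the signal to the nucleus (chr11:100885098-100939540, - strand). H3K27ac covered 7.74, 7.02 and 0% of its window in Oct4+, 3.6, 0 and 2.6% in DP and 0, 2.09 and 3.86% in Pdgfra+ libraries. Each population had 1 library at 0 and 2 with a promoter peak, and the populations overlapped (exact permutation p = 0.443). The Oct4+ libraries with a peak were the highest, at over 7% of the window, and divided by the mean covered share of each library the Oct4+ mean fell below that of Pdgfra+ (difference -0.164 on that scale).

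Away from its promoter, Stat3 had few marks. H3K4me1 covered 0, 2.24 and 1.85% of the window in Oct4+, 0% in all DP and 0, 0 and 2.72% in Pdgfra+ libraries. The Oct4+ peaks lay around the TTCCGGGAA match at +4.64 kb, as a primed region from +3.45 to +5.56 kb, and ranked above only 4.14 and 0.107% of the peaks of their lists. H3K9me3 was listed in 2 of 3 DP and 2 of 3 Pdgfra+ libraries between about +22 and +25 kb. Those peaks lay over an intronic match at +24.85 kb. Elsewhere in the window, H3K9me3 was listed in DP replicate 3 from -11.89 to -10.16 kb and in Oct4+ replicate 1 near +48.59 kb. The populations did not separate in H3K9me3 (exact permutation p = 0.304).

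Socs3, the feedback inhibitor, is the shortest of the 6 genes (chr11:117966079-117970047, - strand, 3.97 kb) and had the highest mean H3K27ac share of the 6 in every population. The covered share was 13.2, 41.3 and 12% in Oct4+, 47.3, 8.04 and 38.7% in DP and 48.1, 37.0 and 9.30% in Pdgfra+ libraries. The spread within each population was larger than the gaps between their means (22.2 ± 16.6, 31.4 ± 20.7 and 31.5 ± 20%, SD, n = 3; exact permutation p = 0.807). Its window also holds the start of Pgs1, an enzyme of cardiolipin synthesis, at about -16 kb, where 1 of 3 Oct4+, 3 of 3 DP and 3 of 3 Pdgfra+ libraries had an H3K27ac peak. In DP replicates 1 and 3 that peak reached -46.96 kb, was 31.4 kb wide and exceeded 99.9% or more of the peaks of its list.

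**Figure D5:**
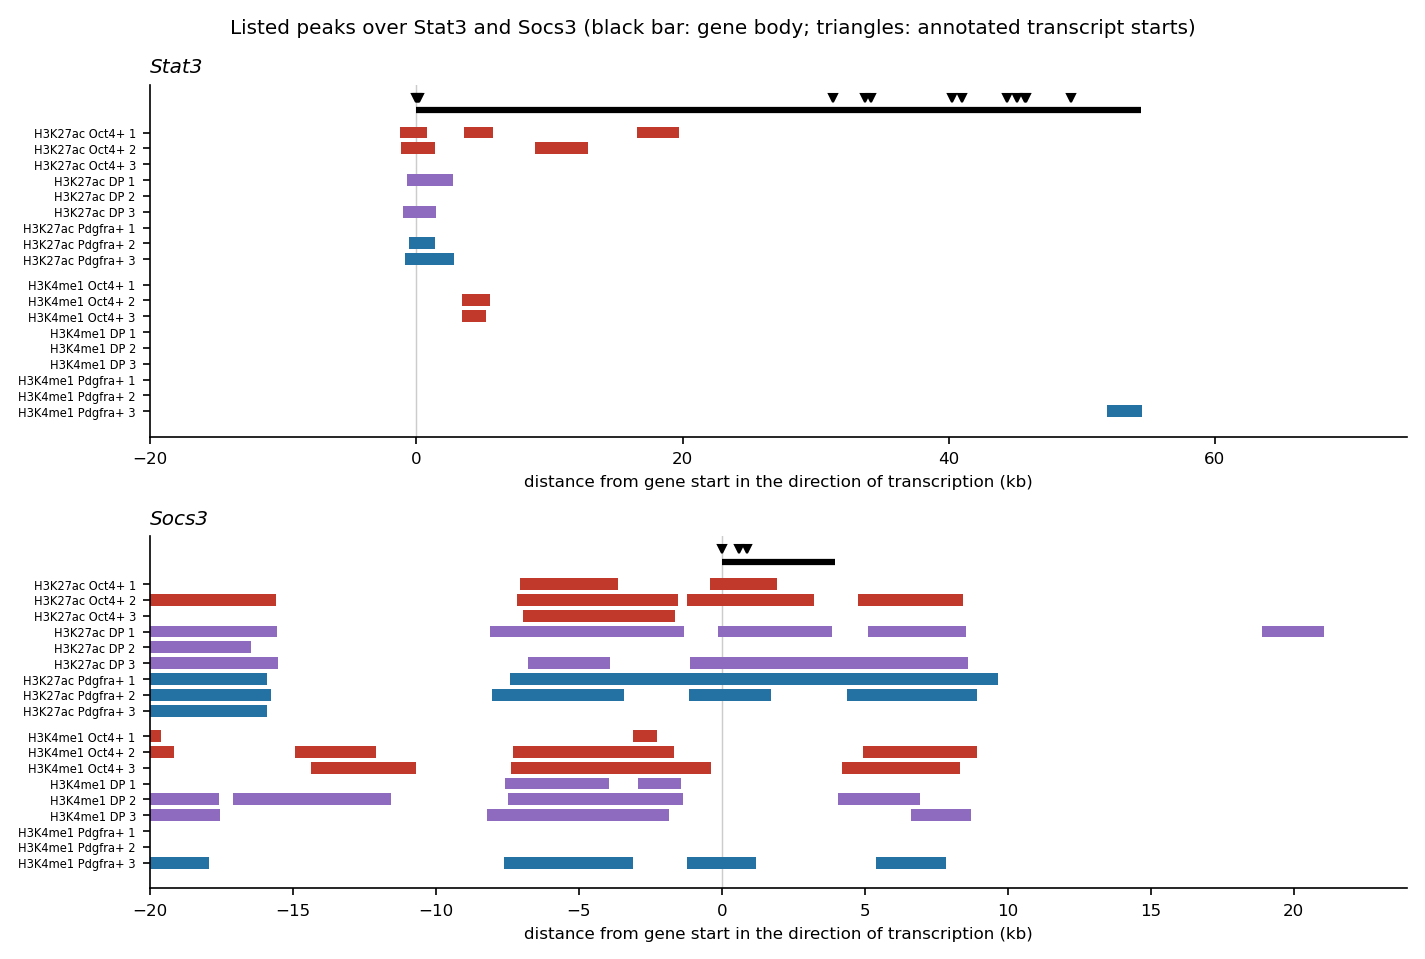
Listed H3K27ac and H3K4me1 peaks of each library (rows, coloured by population) over the windows of Stat3 and Socs3, by distance from the gene start in kb, with the gene body as a bar and transcript starts as triangles. Stat3 has H3K27ac mainly at its start, and Socs3 has blocks on either side in every population.

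The ground upstream of Socs3 carried H3K27ac in every population. From -6.96 to -3.64 kb a peak overlapped in 3 of 3 Oct4+, 2 of 3 DP and 2 of 3 Pdgfra+ libraries, with total signals of 19994, 27621 and 20283 in Oct4+. H3K4me1 covered 2.79, 30.2 and 33.6% of the window in Oct4+, 11.7, 38.4 and 24.7% in DP and 0, 0 and 26.1% in Pdgfra+ libraries, with no separation (exact permutation p = 0.386). Between -3.1 and -2.26 kb, H3K4me1 was listed in 3 of 3 Oct4+, 3 of 3 DP and 0 of 3 Pdgfra+ libraries. For DP over Pdgfra+ such a stretch was present in 11.8% of windows, and among the 6 genes in Lif and Socs3. The Pdgfra+ H3K4me1 lists of replicates 1 and 2 were the shortest of that mark (1723 and 1074 peaks), and Pdgfra+ replicate 3, with 10620, had peaks on both sides of this stretch.

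H3K27ac was listed at 5, 5 and 0 of 6 promoters in Oct4+ libraries, 4, 1 and 5 in DP and 3, 4 and 3 in Pdgfra+, against 10.7 to 44.4% of all promoters. Oct4+ replicate 3 was the 1 library with none of the 6, although it listed 17.1% of all promoters and kept the intronic Lifr peak.

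At the gene start, no promoter of the 6 genes held H3K27me3 or H3K9me3 in any library. Of all promoters, 2.09 to 17.7% held H3K27me3 and 0.488 to 2.34% held H3K9me3, depending on the library. When any annotated start was counted, Stat3 had an H3K9me3 promoter peak in 1 of 3 Oct4+ libraries. H3K27me3 was listed in the windows of Lif, Jak1, Stat3 and Socs3, for Jak1 and Stat3 in DP replicate 2 alone, and in none for Lifr or Il6st. For Socs3 it lay at +16 to +22 kb in Oct4+ replicate 3 and DP replicate 2. H3K9me3 was listed at Il6st, Jak1 and Stat3 and not at Lif, Lifr or Socs3.

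Across all H3K4me1 regions outside promoters in the 6 windows, Oct4+ had 3 active and 3 primed regions, DP 5 active and 6 primed, and Pdgfra+ 1 active and 0 primed. Overlapping peaks of a population were merged first, so a region could be called active where fewer than 2 libraries had H3K27ac directly over it. At the active Il6st region of Oct4+, from -3.67 to -1.08 kb, only replicate 1 had an H3K27ac peak. No region was bivalent (H3K27me3 without H3K27ac) in any population. Of the 6 primed DP regions, 4 were at Lifr and 2 at Il6st, the receptor chains. The active DP regions were at Lif (2) and Socs3 (3), and the 1 active Pdgfra+ region, +11.56 to +20.86 kb, was at Lif. These counts changed by more than 1.5 times when other numbers of libraries or equal numbers of peaks were required.

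None of the 6 genes passed an adjusted p of 0.05 in any mark, and neither did any other gene by the exact permutation test (0.00% of windows tested for each mark). Without adjustment, 6.26% of windows passed for H3K4me1, 8.68% for H3K27ac, 7.26% for H3K27me3 and 12.5% for H3K9me3, and of the pathway genes Jak1 in H3K27ac did, 1 of 6. With 3 libraries a population the smallest p is 0.00357, and 1337 of 18706 genes would have to reach it for an adjusted call in H3K27ac, where 38 did. Pairs of populations cannot go below an exact two-sided p of 0.1.

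Other genes of the pathway were read in the same fit, from lists of 12 interleukin-6 family cytokines and receptors, 9 JAK and STAT genes, 15 negative regulators and 14 STAT3 targets or LIF-responsive genes, and none passed the adjusted threshold in any mark. By unadjusted exact p for H3K27ac, 1 of 11 cytokine and receptor genes tested, 0 of 8 JAK and STAT genes, 1 of 15 negative regulators and 1 of 14 targets were below 0.05, beside 8.68% of all. Il6ra, the interleukin-6 receptor, had a covered share of 16.4 ± 10.1% in Oct4+ and 0% in every DP and Pdgfra+ library (exact permutation p = 0.0357, adjusted p = 0.443). Pias2, an inhibitor of activated STATs, was at 14.4 ± 5.76, 1.72 ± 1.54 and 0% (exact p = 0.0143). Myc, a proliferation factor induced by STAT3 in embryonic stem cells, was at 7.74 ± 8.39% in Oct4+ and 0% in all others (exact p = 0.0357).

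The other genes named for H3K27ac had exact permutation p values of 0.0643 or more. Among them were Osm and Ctf1 (cytokines), Stat2 and Stat4, the phosphatase genes Ptpn1 and Ptpn11, the kinase gene Pim1 and the survival gene Mcl1. Osm, next to Lif, had H3K27ac at its promoter in 2 of 3 Oct4+ and 0 of 6 other libraries. Mcl1 was covered in every library, at 65.4 ± 11.2, 53.5 ± 13.8 and 38.2 ± 6.0%. In all of these the Oct4+ mean was the highest, as were the Oct4+ H3K27ac lists the longest, and over all protein-coding genes the median covered share was 5.76, 1.68 and 0%.

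H3K27me3 was listed in at least 2 of 3 libraries of a population at 20 of these 50 genes (40.0%), beside 33.2% of all protein-coding genes, and the 4 most covered were Gbx2, Fos, Clcf1 and Jak3. DP had the highest mean in each. Over all windows too, the mean H3K27me3 share was 4.44 to 7.43% in DP libraries against 0.571 to 5.16% in Oct4+ and 0.326 to 6.62% in Pdgfra+. Gbx2, a homeobox gene downstream of LIF, was at 55.8 ± 6.44% in DP, beside 25.6 ± 31.5% in Oct4+ and 24.5 ± 23.5% in Pdgfra+ (exact p = 0.246). Fos, an immediate early gene, was at 4.88 ± 8.45, 43.9 ± 8.22 and 4.93 ± 8.53% (exact permutation p = 0.0357, adjusted p = 0.559), with a promoter peak in 1, 3 and 0 of 3 libraries. Clcf1, a cytokine of the family, was at 41.7 ± 13.4% and Jak3, a kinase of lymphoid cytokine receptors, at 39.9 ± 16.0% in DP, in both with overlap or wide spread in the other populations (exact p = 0.382 and 0.143).

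The genes whose covered share followed each pathway gene most closely over the 36 libraries of all marks were found by Pearson correlation, given as a description, since libraries of 1 mark share list length and mark. They were Wdr91 and Ntn3 for Lif (r = 0.940 for both), Dcbld1 and Zfp704 for Lifr (0.970 and 0.966), Mcu and Zc3hav1 for Il6st (0.912 and 0.881), Plch1 and Lrrc18 for Jak1 (0.965 and 0.954), Ppp2r5a and Stk25 for Stat3 (0.877 and 0.865) and Acbd4 and Polr2e for Socs3 (0.916 and 0.905). None of the 12 is in the pathway lists.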

How the data were processed

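Per the study's methods, CUT&Tag fragments were sequenced paired-end, coverage was computed with BEDtools and peaks were called against IgG with SEACR in stringent mode, 1 list per library. The submitters' processing notes name build mm10, bcl2fastq 2.19.1, Bowtie2, SAMtools 1.12 and bedtools 2.26.0. The deposited lists give each peak's interval, total signal and maximum signal (coverage, not scaled here). Depth and the SEACR normalization setting were not stated in the paper or the labels. IgG samples (3) and H3K4me3 were not analysed here.

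Peaks were placed on GRCm38 with GENCODE vM21 gene models (the same assembly as mm10). The covered share was the percent of window bases under a peak. For protein-coding genes with any peak of a mark, the 3 populations (3 libraries each, grouped by the labels) were tested with the one-way F statistic and exact permutation over 280 distinct splits, without direction, with Benjamini-Hochberg adjustment over all genes of the mark. Genes without a peak were not tested. Promoters ran 1 kb upstream to 100 bp downstream of the gene start. Consensus regions merged overlapping peaks of a population and needed a peak in at least 2 of 3 libraries. Stretches (and their alternatives) under a peak in 3 of 3 libraries of one population and 0 of 3 of another (at least 200 bp) were searched after the data were seen, as were the alternatives that left out a library from promoter and state counts. Alternatives were a common signal threshold, equal numbers of peaks, flanks of 5 and 50 kb, scaling by the library mean, the replicate block and leaving out libraries. Analyses used Python 3.11.15, numpy 2.4.6, pandas 2.3.3, scipy 1.17.1 and matplotlib 3.10.9, and the scripts were tested on simulated data and against bedtools 2.31.1.

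The 6 genes and the gene lists were chosen with earlier results of these data known. Named were the 6 genes, up to 3 genes of each pathway list by H3K27ac p (ties by the widest gap between means), up to 4 pathway genes with H3K27me3 in at least 2 of 3 libraries by covered share, genes with a promoter in a window, and the 2 best correlated genes for each of the 6, leaving out overlapping windows. A gene that the rule selects is not reported here. The feeder, epiblast and endoderm genes came from marker lists.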

Additional observations from a re-analysis of the deposited data

How the results depend on the processing

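The number of pathway genes called at an adjusted p of 0.05 was 0 in all 60 alternatives run, the replicate block included. In the main setting 703 to 1337 genes of a mark would have to reach the smallest p for an adjusted call. This check could therefore hardly give another count. Deviations from the population mean correlated at -0.652 to 0.696 between same-numbered libraries over the marks (over 0.1 in 1 to 4 of 9 pairs). Between libraries of other numbers they correlated at -0.735 to 0.717. These ranges are alike but cannot exclude a pairing, and the numbers were not taken to pair the samples. With the replicate block, Jak1 H3K27ac had an exact permutation p of 0.111, and the unadjusted count went from 1 to 0. It also went to 0 without any 1 of the DP or Pdgfra+ libraries. Of 285 covered-share differences recomputed, 276 did not reverse and 9 did. The H3K27ac difference of Jak1 fell to 0 with equal numbers of peaks and with a common threshold, where Lif in place of Jak1 had an unadjusted p below 0.05. In percentage points, with a common signal threshold the difference was -0.0937 for Lifr (Oct4+ minus Pdgfra+), -3.95 for Il6st (Oct4+ minus DP) and -1.29 for Stat3 (Oct4+ minus Pdgfra+), all for H3K27ac. With equal numbers of peaks it was -0.77 for Lifr, -2.27 for Il6st and, for H3K9me3 (Pdgfra+ minus Oct4+), -2.87 for Il6st. Divided by the library mean it was -0.120 for Il6st and -0.164 for Stat3. Leaving out 1 library, the Il6st H3K27ac difference ranged from -0.0531 (without DP replicate 2) to 4.86 (without Oct4+ replicate 3). The cause of these reversals was not tested.

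Genes of 6 with a promoter peak per library moved with any annotated start to 1.33 (H3K4me1, Oct4+), 2.33 (H3K4me1, DP), 4.33 (H3K27ac, Pdgfra+) and 0.333 (H3K9me3, Oct4+). For H3K27ac, equal numbers of peaks gave 0.333 in Oct4+ and 2 in Pdgfra+, and a common threshold 0 and 2. Enhancer states moved most. With a peak in at least 1 of 3 libraries there were 12 active regions in Oct4+, and 7 active and 6 primed in Pdgfra+. With all 3 required there were 0 active and 1 primed in Oct4+ and 2 active and 1 primed in DP, and with equal numbers 0 and 0 in Oct4+ and 2 and 0 in DP. Leaving out 1 library gave 0 (without replicate 2) to 3 active and 0 (without replicate 3) to 4 primed regions in Oct4+, 2 (without replicate 3) to 3 active and 0 (without replicate 2) to 8 primed in DP, and 0 (without replicate 3) to 1 active in Pdgfra+. Depth is unknown, so a region without a peak is not shown to lack the mark.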
